A study of Mus musculus with 64 samples.

Results

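Bone marrow-derived macrophages (BMMs) that lacked the aryl hydrocarbon receptor (AhR) were compared with wild-type BMMs after 20 h of activation by heat-killed Salmonella Enteritidis bacteria (hk S.E.), with no AhR ligand added. The comparison rested on 8 of the 64 libraries of the series, 4 from Ahr-/- and 4 from Ahr+/+ BMMs, chosen by genotype, vehicle, activation and time as the labels give them. The Ahr+/+ BMMs came from female C57BL/6JRj mice, and the Ahr-/- BMMs from a C57BL/6 knockout line that had been crossed back in-house to those mice several times; the sex of the Ahr-/- mice was not given in the sources used here. The study used 4 mice per genotype at 8 to 12 weeks of age. Marrow cells of both genotypes were differentiated for 6 days in medium conditioned by L929 fibroblasts, a source of macrophage colony-stimulating factor, then kept for 6 h in 0.01% DMSO and activated with 10000000 hk S.E. per ml for 20 h, DMSO being the vehicle of the ligands. Before use the cultures were checked by flow cytometry for the macrophage surface proteins CD11b and F4/80. The other libraries of the series held the same genotypes at 3 h, without activation, or with benzo[a]pyrene or indole-3-carbinol.

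AhR is a transcription factor that binds small planar molecules from pollutants, diet and microbes. In the cytoplasm it is held by HSP90 and co-chaperones, and on binding a ligand it enters the nucleus, pairs with ARNT and binds short DNA elements with the core GCGTG near genes such as Cyp1a1, Cyp1b1, Ahrr and Tiparp. AHRR, the AhR repressor, competes for ARNT and is itself a target gene. In macrophages, products of the bacterial wall and bacterial nucleic acids are sensed by Toll-like receptors, which switch on NF-kB targets such as Il1b and Tnf, and interferon-beta, which in turn drives interferon-stimulated genes.

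The 8 libraries held 21933112 to 50644601 counts on genes. Ahr-/- replicates 1 and 2 stood apart from replicates 3 and 4: ribosomal protein genes took 3.16 to 3.25% of their counts and 2.16 to 2.17% in replicates 3 and 4, against 1.96 to 2.41% in Ahr+/+. In the share of mitochondrial counts replicates 3 and 4 were the pair outside Ahr+/+. That share was 1.10 to 1.26% in replicates 3 and 4, 0.647 to 0.695% in replicates 1 and 2 and 0.531 to 0.880% in Ahr+/+. Neither pair was thus the closer to Ahr+/+ in both measures. All 4 Ahr+/+ libraries carried identifiers of one series and all 4 Ahr-/- libraries identifiers of another, so that within these 8 libraries genotype and whatever that identifier series marks cannot be told apart. The macrophage markers Adgre1 (F4/80) and Csf1r were high in both genotypes, at 4172 ± 237 and 4747 ± 240 CPM (counts scaled to a common library size, mean ± SD, n = 4 Ahr+/+ and 4 Ahr-/-) for Adgre1 and at 1501 ± 114 and 1564 ± 205 CPM for Csf1r. Xist, which is transcribed from the inactive X chromosome of females, was at 231 to 464 CPM in Ahr+/+ and 298 to 563 CPM in Ahr-/-, and of the Y-linked genes Ddx3y, Kdm5d and Eif2s3y had no count in any of the 8 libraries and Uty had 1.

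In the activated state at 20 h, 1811 of 14537 genes tested, 12.5%, differed between the genotypes at an adjusted p below 0.01 (edgeR quasi-likelihood test, Benjamini-Hochberg adjustment), 736 of them (5.06%) higher and 1075 (7.39%) lower in Ahr-/-. These differences were mostly moderate, with a median absolute log2 fold change of 0.59 among the genes called. A log2 fold change beyond 1 was seen in 121 of the higher and 310 of the lower genes. The CPM of the 4 libraries of one genotype lay wholly on one side of the other genotype's in 2959 genes (20.4% of those tested, 8.41% with Ahr-/- higher and 11.9% with Ahr-/- lower) and in 1625 of the 1811 called. Over all genes tested the median log2 fold change was 0.01.

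The number of genes called differed between settings. The 1811 genes came from edgeR on all 64 libraries, whereas edgeR on the 8 libraries alone called 532 genes and on the 32 libraries of 20 h 1648. DESeq2 called 1645 genes on the same 8 libraries and 2148 on all 64. A term for the identifier series, estimated across the 64 libraries, left 493. Both series of these 8 libraries occurred together within a group only in unactivated BMMs, so this term rested on those libraries. Whether the same term holds in activated BMMs was not tested. For genes with almost no counts without activation it could not be estimated. Without Ahr-/- replicates 1 and 2 there were 874 genes and without replicates 3 and 4 there were 1994, a split examined after the data had been seen. In edgeR on the 8 libraries 208 genes were higher and 324 lower, and with the series term 198 and 295. The counts were 329 and 545 without replicates 1 and 2, and 962 and 1032 without replicates 3 and 4. Counts of list members under these settings, given below, are to be read beside these totals. Of 110 called genes named in the text, 39 stayed called in edgeR on the 8 libraries, with the series term and without either pair of Ahr-/- replicates, and none of the 110 changed direction. These 39 were Ahrr, Scin, Spint1, Mmp8, Gdf3, Acp1, Hdac9, Rab4a, Gpnmb, Gm6472, Cish, Cd55, Apol7c, Serpinb6b, Adcy6, Cytip, Isg20, Mx2, Fcgr1, H2-T23, Tlr9, Cd86, Icosl, Atf3, Runx3, Tfec, Hsd17b7, Npc2, Plin2, Hk3, Mcm5, Ccnd1, Gsr, Scarb2, Igf1r, Il21r, Metrnl, Tmem39a and Cd300c2. Every other called gene named lost its call under at least one of these settings. Among them Trim43b lost its call only with the series term (adjusted p = 0.322), and it was at 0 CPM in unactivated BMMs of both genotypes at 20 h.

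**Figure D1:**
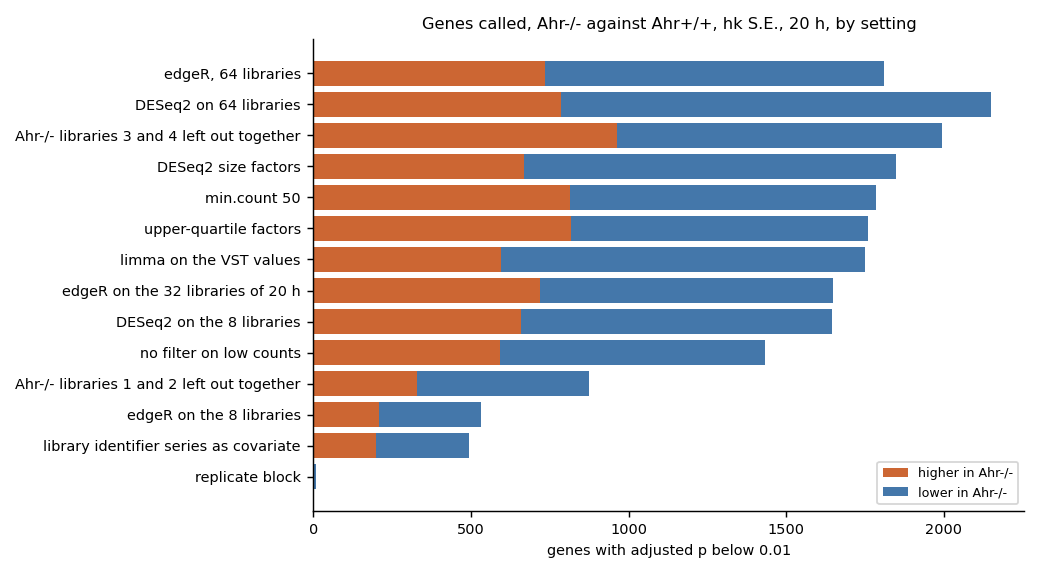
Number of genes with an adjusted p below 0.01 (horizontal axis) in Ahr-/- against Ahr+/+ BMMs, hk S.E., 20 h, for each setting (vertical axis), split into genes higher (orange) and lower (blue) in Ahr-/-. The pooled fit called 1811 genes, while the fit on the 8 libraries and the fit with the identifier series called 532 and 493.

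The receptor gene itself was counted higher, not lower, in the knockout. Ahr (chr12:35497974-35535038 in GRCm38, minus strand) stood at 14.9, 12.7, 12.7 and 11.9 CPM in the Ahr+/+ libraries and at 24.1, 21.3, 25.9 and 28.1 CPM in the Ahr-/- libraries, with a log2 fold change of 0.93 ± 0.19 (SE, adjusted p = 2.48e-04). A count over the whole gene does not separate the deleted part from the rest of the transcript, so it is no check of the deletion. Of 9 genes of the receptor complex and its regulators, 3 rose and 2 fell, Ahr and the repressor gene Ahrr included. Among the receptor's partners, Arnt fell by 0.26 ± 0.06 on the log2 scale (adjusted p = 0.00167), and the HSP90 genes Hsp90aa1 and Hsp90ab1 rose by 0.50 ± 0.11 and 0.57 ± 0.14 (adjusted p = 6.96e-04 and 0.00137). With the identifier series as a covariate Ahr, Arnt, Hsp90aa1 and Hsp90ab1 had adjusted p-values of 0.0367, 0.175, 0.0365 and 0.0101 in that order, and Hsp90ab1 also lost its call without Ahr-/- replicate 1, Ahr-/- replicate 2 or Ahr+/+ replicate 2, at log2 fold changes of 0.47 to 0.51.

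Of 10 AhR target genes with enough counts to be tested, 2 were lower and 1 was higher in Ahr-/-, and 7 did not pass. The repressor gene Ahrr was at 5.84, 6.16, 5.94 and 4.58 CPM in Ahr+/+ and at 0.728, 0.787, 0.626 and 0.810 CPM in Ahr-/-, 7.51-fold lower (log2 fold change -2.91 ± 0.21, adjusted p = 2.28e-15). Scin, which encodes the actin-severing protein adseverin, had 39, 31, 30 and 121 counts in the Ahr+/+ libraries and 1, 0, 0 and 0 in the Ahr-/- libraries, a ratio of 242 in normalised level with an exact 95% counting interval of 42.9 to 9591. In both genes all Ahr-/- libraries lay below all Ahr+/+ libraries. Tiparp, an ADP-ribosyltransferase gene of the same feedback loop, was at 76.5 ± 13.0 CPM in Ahr+/+ and 55.6 ± 21.5 CPM in Ahr-/- (adjusted p = 0.228), and Nqo1, a quinone reductase gene, at 2.39 ± 0.837 and 1.77 ± 0.136 CPM (adjusted p = 0.288). Cyp1a1 and Cyp1b1, the classical xenobiotic enzymes of the pathway, had too few counts to be tested.

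The upstream bases of Ahrr and Spint1 are shown because both genes lost most of their signal in Ahr-/- and both windows carry the GCGTG core 3 times. The sequences are the 250 bases before the start in RefSeq (GRCm38.p6), read 5′ to 3′ along the gene, with GCGTG or its reverse complement CACGC in capitals. Ahrr lies on the minus strand at chr13:74292332-74292581, and Spint1 on the plus strand at chr2:119237110-119237359.
Ahrr: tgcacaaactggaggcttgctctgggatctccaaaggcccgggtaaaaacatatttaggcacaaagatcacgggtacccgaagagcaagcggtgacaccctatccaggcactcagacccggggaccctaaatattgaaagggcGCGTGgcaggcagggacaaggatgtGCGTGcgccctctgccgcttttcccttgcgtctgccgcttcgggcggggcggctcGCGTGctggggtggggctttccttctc
Spint1: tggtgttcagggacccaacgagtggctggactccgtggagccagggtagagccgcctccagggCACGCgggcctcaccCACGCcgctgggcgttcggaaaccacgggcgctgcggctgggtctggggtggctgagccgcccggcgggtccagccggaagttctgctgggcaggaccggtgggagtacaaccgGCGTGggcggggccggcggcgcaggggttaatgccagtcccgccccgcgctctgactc
This short core was common. It was found on either strand in 49.3% of the 10014 tested genes matched to the promoter table, in 46.1% of 836 matched genes that were lower in Ahr-/- and in 50.6% of 567 that were higher. The Tiparp and Scin windows each held it 1 time, and the Nqo1 window did not hold these letters.

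Spint1 belonged to a small set of genes that separated the genotypes whatever the condition. In the 3 other ligand-free comparisons, at 3 h with hk S.E. and at 3 h and 20 h without it, 411 (2.83%), 176 (1.21%) and 102 (0.702%) of the genes tested were called. In the same order 1.22%, 0.241% and 0.220% were higher and 1.61%, 0.970% and 0.482% lower in Ahr-/-. A set of 15 genes were called in the same direction in all 4 comparisons, 11 lower and 4 higher in Ahr-/-. These comparisons used other libraries, but the study had 4 mice per genotype, so the libraries may come from the same animals.

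Spint1, which encodes a Kunitz-type inhibitor of serine proteases, was at 2.16, 2.76, 2.77 and 2.04 CPM in Ahr+/+ and at 0.158, 0.262, 0.0368 and 0.0552 CPM in Ahr-/- (log2 fold change -4.32 ± 0.30, adjusted p = 4.41e-16). The collagenase gene Mmp8 was at 8.09, 12.8, 9.65 and 5.41 CPM in Ahr+/+ against 1.20, 0.637, 0.699 and 0.957 CPM in Ahr-/- (-3.32 ± 0.25, adjusted p = 3.77e-15). Neither gene overlapped between genotypes, and the Spint1 difference at 3 h with hk S.E., -5.12, and without activation at 20 h, -3.97, was of the same order. Gdf3, a growth factor gene of the TGF-beta family, fell by 3.27 ± 0.37 (adjusted p = 1.63e-09). Gpnmb, a transmembrane glycoprotein of lysosomes and the cell surface, fell from 4444 ± 986 to 1131 ± 314 CPM (log2 fold change -1.97 ± 0.17).

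Receptors and ligands of leukocyte traffic were among the genes lower in all 4 comparisons. Ccr7, a chemokine receptor that guides dendritic cells to lymph nodes, fell from 26.0 ± 8.36 to 6.51 ± 2.06 CPM (adjusted p = 6.35e-07), and Ccr1 from 134 ± 36.3 to 63.4 ± 14.0 CPM (adjusted p = 1.40e-05). Ccl7, a monocyte chemoattractant, was at 480, 485, 280 and 405 CPM in Ahr+/+ and at 230, 130, 248 and 178 CPM in Ahr-/- (adjusted p = 0.00189, a call lost at log2 fold change -0.91 when Ahr-/- replicate 2 was left out). Il1rn, the interleukin-1 receptor antagonist, fell by 1.14 ± 0.25 (adjusted p = 7.23e-04). Mrc1, the mannose receptor, was low in both genotypes, at 1.23 ± 0.377 and 0.426 ± 0.182 CPM, and fell by 1.48 ± 0.34 (adjusted p = 0.00111), a call lost at -1.26 without Ahr+/+ replicate 2. With the series term the Ccr7 difference was -1.24 in place of -1.99 and was not called (adjusted p = 0.159). In the fit on the 8 libraries alone, Ccr1, Il1rn, Ccl7 and Mrc1 had adjusted p-values of 0.0103, 0.0289, 0.0160 and 0.0223.

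The genes higher in all 4 comparisons were Ahr, Rab4a, Wdfy1 and the processed pseudogene Gm6472. Rab4a, a small GTPase gene of endosome recycling, had the largest rise of any protein-coding gene named by the rule, from 0.270, 0.299, 0.251 and 0.234 CPM in Ahr+/+ to 2.06, 5.13, 3.02 and 3.33 CPM in Ahr-/- (log2 fold change 3.68 ± 0.30, adjusted p = 9.95e-14). Gm6472 went from 14.4 ± 2.90 to 40.2 ± 5.64 CPM (adjusted p = 1.02e-09), a value that is uncertain because a pseudogene can share reads with its parent gene. Wdfy1, an endosomal adaptor of Toll-like receptor signalling, was at 15.6 to 18.6 CPM in Ahr+/+ and at 25.4, 20.8, 64.6 and 38.4 CPM in Ahr-/- (1.15 ± 0.30, adjusted p = 0.00397). The Wdfy1 call was lost without Ahr-/- replicate 3 or without Ahr+/+ replicate 1, 3 or 4, at log2 fold changes between 0.75 and 1.17.

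**Figure D2:**
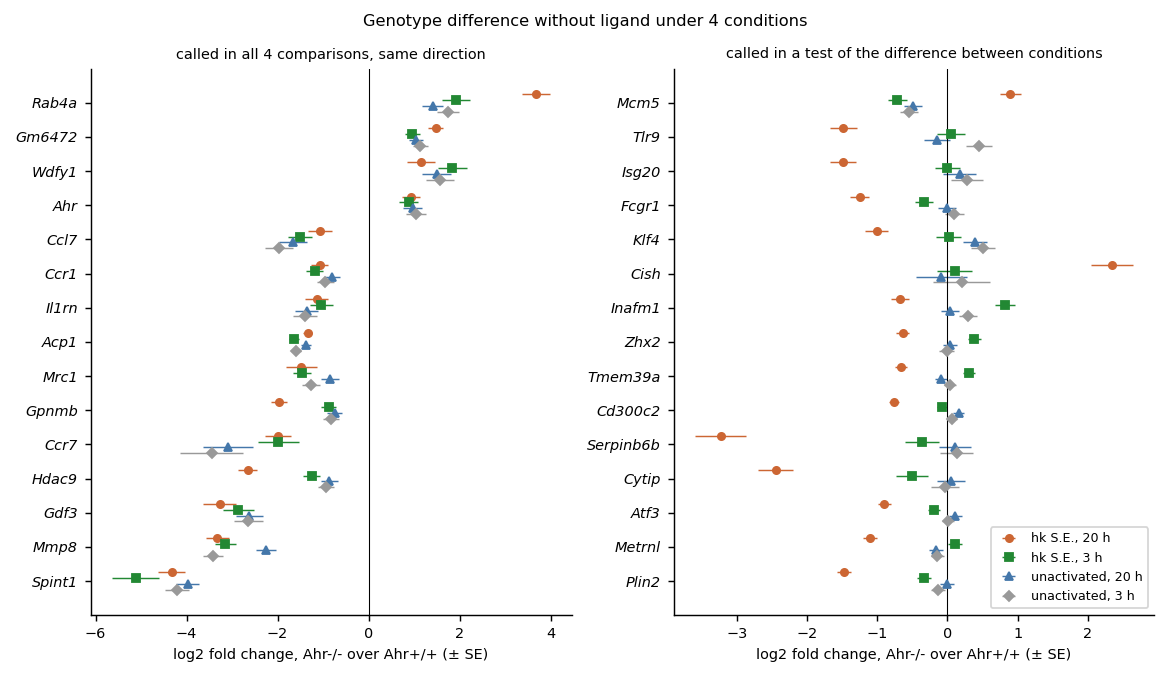
Log2 fold change (horizontal axis, Ahr-/- over Ahr+/+, with SE) of genes (vertical axis) in 4 ligand-free conditions, 4 libraries per genotype and condition. Left, the 15 genes called in the same direction in all 4 comparisons, from Spint1 at -4.32 to Rab4a at 3.68 with hk S.E. at 20 h; right, genes called in a test of the difference between conditions, such as Plin2 at -1.47 with hk S.E. at 20 h and 0.00 without activation at 20 h.

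Hdac9 and Acp1, from this set of 15, lie near Ahr on chromosome 12. Within 5 Mb of Ahr, 38 genes were tested and 7 were called (18.4%), Ahr itself included and 6 of them lower in Ahr-/-. On the whole of chromosome 12 it was 46 of 525 (8.76%), and of all genes tested 12.5% were called. Hdac9, a class II histone deacetylase gene 581 kb from Ahr, was at 9.66, 11.5, 7.83 and 8.56 CPM in Ahr+/+ and at 1.58, 1.76, 1.29 and 1.34 CPM in Ahr-/- (log2 fold change -2.66 ± 0.21, adjusted p = 3.93e-14). Acp1, a phosphatase gene 4586 kb away, fell from 39.5 ± 3.84 to 15.6 ± 0.844 CPM (adjusted p = 2.59e-14). The tetraspanin gene Tspan13, 480 kb away, was at 6.51, 5.01, 2.26 and 5.73 CPM in Ahr+/+ and 1.68, 1.05, 2.21 and 2.32 CPM in Ahr-/- (-1.40 ± 0.28, adjusted p = 1.53e-04), with overlap in Ahr+/+ replicate 3. Scin, described above, lies 4525 kb from Ahr.

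The remaining neighbours, Hbp1 and Fam110c, were called less firmly. Hbp1, a transcriptional repressor gene, fell by 0.54 ± 0.14 (adjusted p = 0.00279), and Fam110c, at 0.321 ± 0.182 CPM in Ahr+/+ and 0.0563 ± 0.0409 CPM in Ahr-/-, fell by 2.35 ± 0.63 (adjusted p = 0.00448). The Hbp1 call was lost without replicate 1 or 2 of either genotype, at -0.50 to -0.44. That of Fam110c was lost without Ahr-/- replicate 3 or 4 or Ahr+/+ replicate 1 or 2, at -2.32 to -2.04.

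Interferon-stimulated genes made up the largest number of lower genes in any list. Of 44 tested, 21 fell, none rose and 23 did not pass, 43 of the 44 had a negative log2 fold change, and their median was -0.65. Their summed level was 18196, 17507, 15275 and 17846 CPM in Ahr+/+ and 7600, 6549, 11651 and 10451 CPM in Ahr-/-. All Ahr-/- sums lay below all Ahr+/+ sums, and Ahr-/- replicates 1 and 2 were the lowest. The lower count was 8 in the fit on the 8 libraries, 4 with the identifier series, 6 without Ahr-/- replicates 1 and 2, and 27 without replicates 3 and 4, and the median stayed negative in all of these, from -0.97 to -0.48. Of all 14537 genes tested, 324, 295, 545 and 1032 were lower under these settings in the same order.

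Rsad2, which encodes the antiviral enzyme viperin, was at 2411, 2077, 1427 and 1980 CPM in Ahr+/+ and at 235, 132, 861 and 620 CPM in Ahr-/- (log2 fold change -2.09 ± 0.41, adjusted p = 1.42e-04). Isg15, a ubiquitin-like modifier, fell from 1007 ± 116 to 459 ± 94.4 CPM (adjusted p = 3.05e-05). Isg20, an RNA exonuclease gene, fell from 113 ± 14.1 to 40.1 ± 14.2 CPM (adjusted p = 1.97e-08). Mx2, an antiviral GTPase gene, fell from 72.8 ± 5.32 to 30.1 ± 8.74 CPM (adjusted p = 2.69e-06), Oasl1, a relative of the oligoadenylate synthetases, with a log2 fold change of -1.69 ± 0.27 (adjusted p = 5.26e-06) and Ifi35 with one of -0.69 ± 0.11 (adjusted p = 3.10e-06).

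Other genes of the group were below the Ahr+/+ level without passing. Irf7, the transcription factor that amplifies interferon production, was at 2128 ± 70.9 CPM in Ahr+/+ and 1182 ± 183 CPM in Ahr-/- (adjusted p = 0.0154), and Ifit1 at 520 ± 76.6 and 323 ± 152 CPM (adjusted p = 0.171). Irf7 was called lower in edgeR on the 8 libraries (adjusted p = 0.00356) and in DESeq2 on the 8 and on all 64 (adjusted p = 1.07e-08 and 0.00777). It was not called with the series term or without Ahr-/- replicates 1 and 2 (adjusted p = 0.278 and 0.159). Leaving out Ahr-/- replicates 1 and 2 ended the call of Rsad2 (-1.41, adjusted p = 0.0317). Isg20, Mx2, Oasl1, Isg15 and Ifi35 kept theirs there. Ifit and Oas genes have close paralogues, so counts among them are uncertain.

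**Figure D3:**
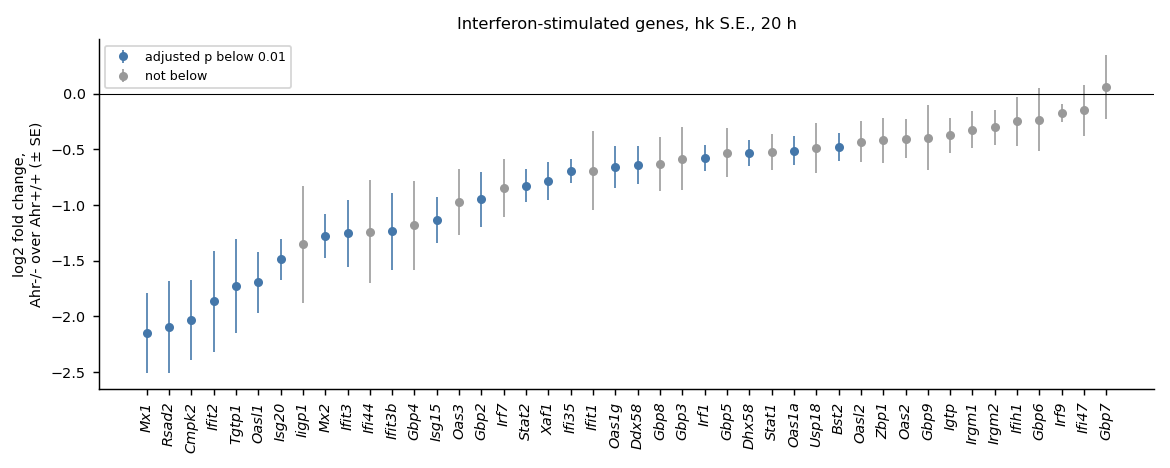
Log2 fold change (vertical axis, Ahr-/- over Ahr+/+, with SE) of the 44 interferon-stimulated genes tested (horizontal axis), DMSO and hk S.E., 20 h, 4 libraries per genotype. Blue points had an adjusted p below 0.01 (21 genes, all negative) and grey points did not (23 genes).

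Upstream windows of Isg15 and Rsad2 are shown because both genes fell and both windows carry the letters of the interferon-stimulated response element. Capitals mark GAAA, any 2 bases and GAAA, or the reverse complement TTTC, any 2 bases and TTTC, where overlapping matches run together. Isg15 lies on the minus strand at chr4:156200819-156201068, and Rsad2 on the minus strand at chr12:26456453-26456702.
Isg15: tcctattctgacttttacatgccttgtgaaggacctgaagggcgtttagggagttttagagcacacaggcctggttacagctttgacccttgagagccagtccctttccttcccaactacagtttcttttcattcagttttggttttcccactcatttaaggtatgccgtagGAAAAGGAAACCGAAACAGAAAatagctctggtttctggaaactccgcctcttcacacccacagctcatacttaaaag
Rsad2: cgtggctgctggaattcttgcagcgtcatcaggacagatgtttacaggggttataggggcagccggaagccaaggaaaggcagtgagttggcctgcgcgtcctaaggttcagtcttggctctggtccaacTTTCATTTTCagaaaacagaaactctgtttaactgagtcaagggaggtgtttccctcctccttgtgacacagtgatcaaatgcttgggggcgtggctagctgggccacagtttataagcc
The element was in 3.5% of the windows of tested genes, in 55.6% of the 18 interferon-stimulated genes called lower with a window in the table and in 57.1% of the 14 that were not called. It was in 6.9% of the windows of all genes lower in Ahr-/- and in 2.6% of those higher.

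Ifnb1, interferon-beta itself, was near the limit of counting at this time, at 0.494, 0.598, 1.48 and 1.02 CPM in Ahr+/+ and 0.0950, 0.112, 0.368 and 0.110 CPM in Ahr-/- (log2 fold change -2.51 ± 0.59, adjusted p = 0.00134). Its call was lost without Ahr-/- replicate 4 or Ahr+/+ replicate 3, at -2.28 and -2.19, and its adjusted p was 0.0136 on the 8 libraries, 0.816 with the series term and 0.0367 without Ahr-/- replicates 1 and 2. Stat2, a subunit of the interferon-activated factor and one of the 44 genes above, fell by 0.83 ± 0.15 (adjusted p = 3.72e-05), a call lost on the 8 libraries, with the series term and without Ahr-/- replicates 1 and 2 (adjusted p = 0.0106, 0.0163 and 0.0177). In the list of SOCS and STAT genes, 4 of 19 fell, also including Jak1 at -0.38 ± 0.08 and Stat4 at -1.05 ± 0.22 (adjusted p = 2.43e-04 and 3.31e-04), and 1 rose. The lower count of that list was 0 on the 8 libraries, 1 with the series term and 1 without Ahr-/- replicates 1 and 2.

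The chemokines Cxcl10 and Cxcl11, which draw T cells and are induced by interferons, fell by 1.46 ± 0.30 and 2.94 ± 0.44 (adjusted p = 2.05e-04 and 1.91e-06). Cxcl10 was at 730, 607, 451 and 755 CPM in Ahr+/+ and 165, 95.8, 367 and 294 CPM in Ahr-/-. No Ahr-/- library reached the lowest Ahr+/+ library for Cxcl10, yet its call was lost on the 8 libraries, with the series term and without Ahr-/- replicates 1 and 2 (adjusted p = 0.0293, 0.0108 and 0.0467). With the series term the Cxcl11 difference was -0.79 (adjusted p = 0.941). Il27, a cytokine subunit gene, fell from 38.4 ± 7.17 to 16.9 ± 2.12 CPM (adjusted p = 1.07e-07, and 0.0545 with the series term). Fcgr1, the high-affinity receptor for IgG, fell from 780 ± 67.4 to 329 ± 64.5 CPM (adjusted p = 3.32e-10).

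Antigen presentation through MHC class I moved in part. Of 16 genes tested, 6 fell and 0 rose (median -0.32). The lower count was 3 on the 8 libraries, 1 with the series term (median -0.09) and 3 without Ahr-/- replicates 1 and 2. The peptide transporter Tap1 fell by 0.74 ± 0.12 (adjusted p = 4.39e-06), the non-classical class I gene H2-T23 fell by 0.76 ± 0.12 (adjusted p = 3.53e-06) and the immunoproteasome subunit Psmb9 fell by 0.57 ± 0.11 (adjusted p = 1.07e-04). With the series term Tap1 and Psmb9 lost their calls (adjusted p = 0.0228 and 0.0754). The heavy chains H2-D1 and H2-K1 were at 4468 ± 191 and 3760 ± 258 CPM in Ahr+/+ and at 3943 ± 305 and 3290 ± 104 CPM in Ahr-/- (adjusted p = 0.187 and 0.125), and with the series term their log2 fold changes were 0.0513 and 0.0533 in place of -0.18 and -0.19. Of 11 MHC class II genes, 1 was higher, H2-Ob, a subunit of an inhibitor of peptide loading, at 0.710 ± 0.139 against 3.00 ± 1.17 CPM (adjusted p = 4.59e-06), and 2 were lower.

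Cytokine genes gave calls in both directions, more of them higher. Of 20 interleukin and TNF-family genes tested, 6 rose and 3 fell (median log2 fold change 0.12). Their summed level was 6668, 6596, 5059 and 6508 CPM in Ahr+/+ and 12814, 11213, 7131 and 8986 CPM in Ahr-/-. The sums did not overlap, and again Ahr-/- replicates 1 and 2 were the farthest out. Mean Il1a went from 661 CPM in Ahr+/+ to 2170 CPM in Ahr-/-, and mean Il1b from 1729 to 4603 CPM. The combined rise of these 2 genes exceeded the average rise of the sum, so the higher sum does not describe the rest of the list. In the fit on the 8 libraries 3 rose and 1 fell, with the series term 0 and 1, without Ahr-/- replicates 1 and 2 it was 3 and 1, and without replicates 3 and 4 it was 6 and 5. For Csf2, Csf3 and Il23a, described below, the series term could not be estimated.

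Il1a, which encodes interleukin-1 alpha, was at 813, 697, 455 and 679 CPM in Ahr+/+ and at 2456, 2292, 1540 and 2390 CPM in Ahr-/- (log2 fold change 1.71 ± 0.21, adjusted p = 9.46e-09). Il1b was at 1610, 1988, 1635 and 1681 CPM in Ahr+/+ and at 6636, 6134, 2356 and 3287 CPM in Ahr-/- (1.41 ± 0.27, adjusted p = 6.64e-05). For both genes every Ahr-/- value exceeded the Ahr+/+ values of the same gene, but the Il1b difference was 0.71 (adjusted p = 0.0882) without Ahr-/- replicates 1 and 2, and with the series term neither was called (adjusted p = 0.0351 for Il1a and 0.0228 for Il1b). The colony-stimulating factor genes Csf2 (GM-CSF) and Csf3 (G-CSF) rose with adjusted p-values of 2.87e-05 and 1.85e-05. Csf2 was at 1.39, 1.08, 1.10 and 1.90 CPM in Ahr+/+ and at 20.3, 16.5, 5.19 and 6.16 CPM in Ahr-/-, and Csf3 at 1.05 ± 0.116 and 6.26 ± 3.21 CPM. Il23a, the interleukin-23 subunit, was at 0.314 to 0.486 CPM in Ahr+/+ and at 4.72, 4.05, 0.883 and 1.29 CPM in Ahr-/- (2.69 ± 0.50, adjusted p = 9.85e-05). Without Ahr-/- replicates 1 and 2 the differences of Csf2 and Il23a were 2.03 and 1.40, and neither was called (adjusted p = 0.0127 and 0.0711). With the series term the differences of Csf2, Csf3 and Il23a stayed at 3.11, 2.58 and 2.69, and none was called. These genes had almost no counts in unactivated BMMs, so that term could not be estimated for them. Their loss of calls there is uninformative.

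Il10, the anti-inflammatory member, was also higher, at 4.61 ± 1.56 against 9.16 ± 1.58 CPM (adjusted p = 0.00918), but the call was lost when any one of the 4 Ahr-/- libraries or Ahr+/+ replicate 1, 2 or 4 was left out, at log2 fold changes from 0.82 to 1.04. Tnf and Il6 did not pass. Tnf was at 1302 ± 237 CPM in Ahr+/+ and 1324 ± 135 CPM in Ahr-/- (log2 fold change 0.02 ± 0.12, adjusted p = 0.922), and Il6 at 480 ± 115 and 628 ± 268 CPM (adjusted p = 0.261). Cish, a feedback inhibitor induced by cytokine receptors that signal through STAT5, rose from 3.10, 2.32, 1.82 and 2.36 CPM to 17, 16.9, 5.78 and 8.74 CPM (2.34 ± 0.30, adjusted p = 2.87e-08), and Socs3 was at 511 ± 29.2 and 631 ± 106 CPM (adjusted p = 0.158).

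**Figure D4:**
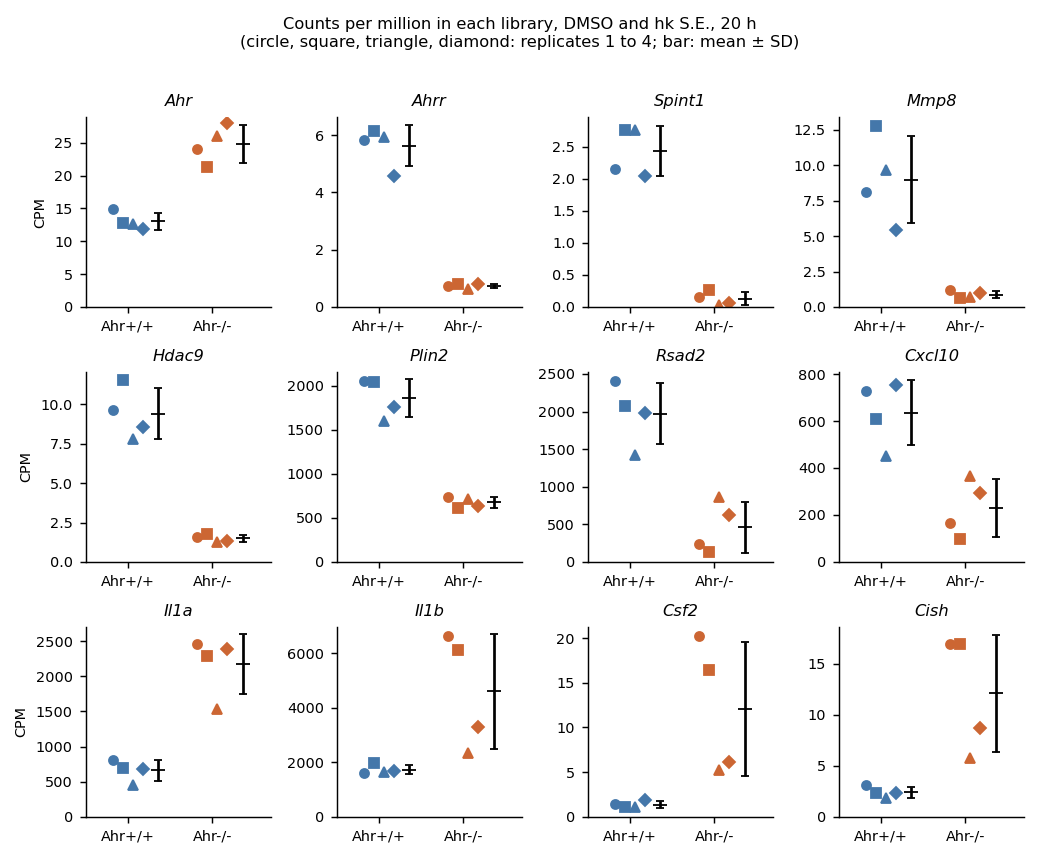
CPM (vertical axes, linear from 0) of 12 genes in each of the 8 libraries, hk S.E., 20 h, by genotype (horizontal axes), with the mean and SD of 4 libraries in black. Ahrr, Spint1, Mmp8, Hdac9 and Plin2 were low in all 4 Ahr-/- libraries, whereas in Rsad2, Cxcl10, Il1b, Csf2 and Cish the Ahr-/- replicates 1 and 2 (circle, square) lay farther from Ahr+/+ than replicates 3 and 4 (triangle, diamond).

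Of 23 chemokine genes tested, 2 rose and 6 fell (median -0.34), and with the series term 0 rose and 1 fell. Cxcl3, a neutrophil attractant, rose from 64.2 ± 19.2 to 253 ± 87.5 CPM (adjusted p = 4.81e-06). The CCR2 ligand Ccl12 fell from 12.7 ± 3.30 to 2.77 ± 1.26 CPM (adjusted p = 4.34e-07) and Ccl8 from 7.08 ± 2.09 to 1.90 ± 0.651 CPM (adjusted p = 9.66e-06). Ccl5, the most abundant of them at 6024 ± 796 and 4166 ± 230 CPM, did not pass (adjusted p = 0.0622). It was called in DESeq2 on the 8 libraries but not on all 64 (adjusted p = 1.89e-04 and 0.0441).

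Among 25 pattern recognition receptors and adaptors, 2 rose, 4 fell and 19 did not pass, and without Ahr-/- replicates 1 and 2 none rose and 1 fell. Tlr9, the receptor for unmethylated CpG DNA, was at 26.2, 26.9, 28.1 and 14.8 CPM in Ahr+/+ and 7.31, 8.32, 11.1 and 7.58 CPM in Ahr-/- (log2 fold change -1.49 ± 0.19, adjusted p = 5.13e-08). Ticam1, which encodes the TRIF adaptor of TLR3 and TLR4, fell by 0.65 ± 0.14 (adjusted p = 5.51e-04), and Naip5, a flagellin sensor, fell by 0.62 ± 0.14 (adjusted p = 7.80e-04). Tlr2, the lipoprotein receptor, rose by 0.40 ± 0.09 (adjusted p = 5.95e-04), and Tlr4, the receptor for endotoxin, was at 22.3 ± 6.15 and 38.2 ± 10.3 CPM (adjusted p = 0.0467). In the NF-kB list of 17, Nfkb1 and Ikbkb rose by 0.42 ± 0.09 and 0.35 ± 0.07 (adjusted p = 5.06e-04 and 2.78e-04) and Nfkb2 fell by 0.55 ± 0.13 (adjusted p = 8.70e-04), while Rela was at 147 ± 6.08 and 121 ± 4.92 CPM (adjusted p = 0.0213). The Nfkb1 call was lost at 0.32 without Ahr-/- replicate 1. Rela and Tlr4 were called in DESeq2 on the 8 libraries (adjusted p = 0.00476 and 0.00954). In DESeq2 on all 64 Rela was called and Tlr4 was not (adjusted p = 0.00749 and 0.0421).

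Costimulatory genes split. Cd86, a ligand of CD28 on T cells, was at 182, 199, 92.8 and 147 CPM in Ahr+/+ and 62.4, 45.0, 74.3 and 62.1 CPM in Ahr-/- (log2 fold change -1.35 ± 0.19, adjusted p = 3.69e-07), with no overlap. Cd274, which encodes the inhibitory ligand PD-L1, fell by 0.67 ± 0.15 (adjusted p = 5.44e-04) and Tnfsf15 fell by 1.16 ± 0.23 (adjusted p = 1.41e-04). Icosl, the ligand of ICOS, rose from 21.4 ± 3.73 to 60.7 ± 18.3 CPM (adjusted p = 4.50e-08), and in all 4 of the 14 tested members fell and 1 rose. Without Ahr-/- replicates 1 and 2 the adjusted p-values of Cd274 and Tnfsf15 were 0.0540 and 0.0289.

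Of 11 genes of nitric oxide, arginine and itaconate metabolism, 1 rose and 1 fell, close to the 5.06% higher and 7.39% lower of all genes tested. Nos2, the inducible nitric oxide synthase, was at 330, 267, 295 and 174 CPM in Ahr+/+ and 78.7, 63.0, 161 and 130 CPM in Ahr-/- (log2 fold change -1.30 ± 0.29, adjusted p = 7.55e-04), and Arg2, the mitochondrial arginase, was at 7.36 ± 1.67 and 15.9 ± 6.68 CPM (1.11 ± 0.25, adjusted p = 7.63e-04). Neither was called without Ahr-/- replicates 1 and 2 (-0.87 and 0.48, adjusted p = 0.0796 and 0.250). Acod1, which makes itaconate, was at 7205 ± 526 and 4875 ± 919 CPM (adjusted p = 0.0283) and Arg1 at 19.4 ± 11.3 and 23.2 ± 12.5 CPM (adjusted p = 0.721). Acod1 was called in DESeq2 on the 8 libraries but not on all 64 (adjusted p = 0.00415 and 0.0155). None of 6 phagocyte oxidase subunits passed in edgeR or in DESeq2, and 1 had an unadjusted edgeR p below 0.05, Cybb, the catalytic subunit, being at 5006 ± 352 and 5274 ± 660 CPM (adjusted p = 0.696). Of 15 NRF2 antioxidant genes 3 rose and 1 fell, with Gsr, glutathione reductase, at 0.65 ± 0.10 and Gclc, a subunit of glutathione synthesis, at 0.58 ± 0.12 (adjusted p = 9.95e-07 and 1.43e-04), while Hmox1 was at 1541 ± 223 and 1186 ± 230 CPM (adjusted p = 0.0663). The summed level of the NRF2 list went the other way, at 6055 to 6529 CPM in Ahr+/+ and 5072 to 5382 CPM in Ahr-/-.

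Sterol synthesis genes were called in one direction. Of 21 tested, 8 rose and none fell, 18 had a positive log2 fold change, and the median was 0.33. Their summed level was 395, 381, 400 and 411 CPM in Ahr+/+ and 464, 516, 445 and 474 CPM in Ahr-/-, with no overlap. In all, 4 rose in the fit on the 8 libraries, 3 with the series term, 4 without Ahr-/- replicates 1 and 2 and 9 without replicates 3 and 4.

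Hsd17b7, an enzyme of the pathway, rose by 1.25 ± 0.22 on the log2 scale (adjusted p = 3.11e-05). Of 9 cholesterol efflux genes, Npc2, which carries cholesterol out of lysosomes, fell from 1804 ± 152 to 1063 ± 67.5 CPM (adjusted p = 6.61e-12), and the exporter Abca1 was at 584 ± 104 and 539 ± 137 CPM (adjusted p = 0.707).

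Plin2, which encodes a coat protein of lipid droplets, was at 2049, 2037, 1604 and 1759 CPM in Ahr+/+ and at 731, 615, 718 and 632 CPM in Ahr-/- (log2 fold change -1.47 ± 0.10, adjusted p = 2.42e-16). No gene tested in this comparison had a smaller adjusted p. In the list of 22 glycolysis and HIF-1 genes, Hk3, a hexokinase of myeloid cells, fell from 737 ± 92.1 to 332 ± 67.2 CPM (adjusted p = 1.13e-09), and 2 rose, among them Adm, adrenomedullin, at 0.688 ± 0.163 against 1.99 ± 0.696 CPM (adjusted p = 8.13e-04). The glucose transporter Slc2a1 was at 157 ± 20.3 and 178 ± 43.8 CPM (adjusted p = 0.686). This list had a median of 0.24 with all libraries and of -0.09 without Ahr-/- replicates 1 and 2.

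Of 26 macrophage transcription factors tested, 6 fell and 1 rose (median -0.36), and with the series term 2 fell and 1 rose. Atf3, a stress-induced repressor of cytokine genes, fell from 439 ± 39.4 to 235 ± 40.1 CPM (adjusted p = 6.59e-11), Runx3 from 33.1 ± 2.71 to 17.6 ± 1.68 CPM (adjusted p = 3.41e-06) and Klf4 with a log2 fold change of -1.01 ± 0.16 (adjusted p = 5.33e-06). Tfec, a relative of the lysosomal factor TFEB, rose from 8.96 ± 0.801 to 17.7 ± 4.05 CPM (adjusted p = 8.14e-07), and Spi1 (PU.1) was at 353 ± 11.4 and 279 ± 27.8 CPM (adjusted p = 0.0948). Spi1 was called in DESeq2 on the 8 libraries but not on all 64 (adjusted p = 0.00489 and 0.0639).

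In the unfolded protein and amino acid response, 7 of 18 genes fell and 1 rose (median -0.33). Ddit3 (CHOP) fell from 338 ± 54.4 to 184 ± 30.8 CPM (adjusted p = 1.96e-05), and Ppp1r15a (GADD34), which restores translation after stress, from 372 ± 51.4 to 206 ± 44.7 CPM (adjusted p = 2.39e-05). Atf6 and Xbp1, transcription factors of this response, fell by 0.50 ± 0.10 and 0.30 ± 0.07 (adjusted p = 2.65e-04 and 7.23e-04). With the series term 1 member of the list was called lower, and its median was -0.03.

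The cell cycle list gave calls in both directions, 5 of 29 rising and 2 falling (median -0.01). Its summed level was lower in Ahr-/-, at 926.5 to 994 CPM in Ahr+/+ and 772.4 to 807.9 CPM in Ahr-/-. Cdkn1a alone, described below, fell by more than this sum did on average, so the lower sum does not describe the rest of the list. Mcm5 and Mcm6, subunits of the replicative helicase, rose by 0.90 ± 0.16 and 0.48 ± 0.11 (adjusted p = 1.74e-05 and 0.00114), and the proliferation marker Mki67 by 0.77 ± 0.18 (adjusted p = 0.00127), a call lost at 0.67 without Ahr-/- replicate 1. Ccnd1 (cyclin D1) was at 8.94, 7.21, 10.0 and 6.94 CPM in Ahr+/+ and 1.61, 2.02, 3.35 and 2.15 CPM in Ahr-/- (-1.86 ± 0.20, adjusted p = 3.93e-10), and Cdkn1a (p21), a brake on the cycle, fell from 457 ± 40.1 to 262 ± 15.2 CPM (adjusted p = 5.06e-07). At 3 h with hk S.E. the same list had 16 lower members and none higher, with a median of -0.64.

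**Figure D5:**
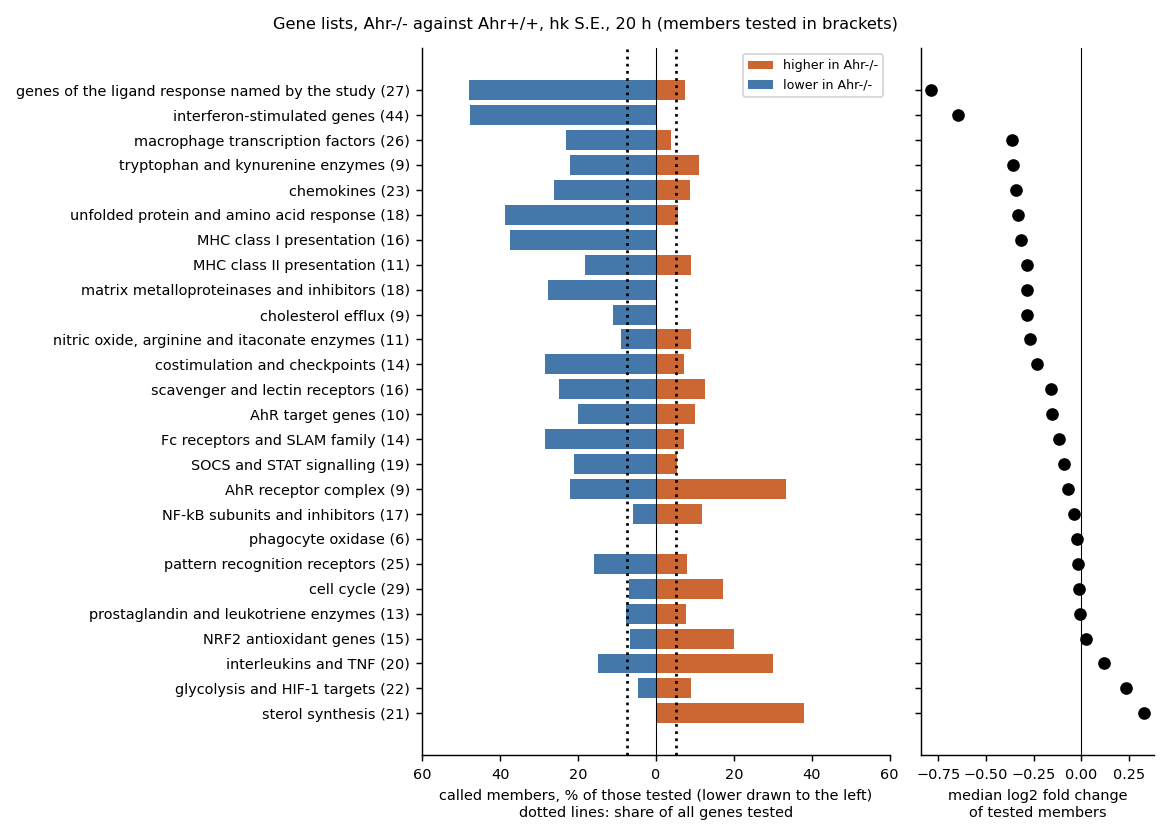
Share of tested members of each gene list called higher (orange, to the right) or lower (blue, to the left) in Ahr-/- (left panel, percent) and the median log2 fold change of tested members (right panel), hk S.E., 20 h; the number tested is in brackets and the dotted lines are the shares of all genes tested, 5.06% and 7.39%. Of the interferon-stimulated genes 21 of 44 were lower and none higher, and of the sterol synthesis genes 8 of 21 were higher and none lower.

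Of 16 scavenger and lectin receptors 2 rose and 4 fell. Olr1, a receptor for oxidised lipoprotein, rose from 1.47 ± 0.464 to 4.02 ± 0.637 CPM (adjusted p = 8.74e-05), and Clec5a by 0.61 ± 0.13 (adjusted p = 4.81e-04), while Scarb2, a lysosomal membrane receptor, fell by 0.53 ± 0.07 (adjusted p = 4.75e-08). Of 18 matrix metalloproteinases and inhibitors 5 fell and none rose, Mmp25 among them at -1.35 ± 0.26 (adjusted p = 7.12e-05) beside Mmp8 and Spint1. Of 14 Fc receptor and SLAM family genes 4 fell, including Fcgr1, and 1 rose. Of 9 tryptophan and kynurenine enzymes 1 rose and 2 fell, of 13 prostaglandin and leukotriene enzymes 1 rose and 1 fell, and of 6 osteoclast markers 1 fell. Over all genes tested 5.06% were higher and 7.39% lower, and in lists this small 1 call lies close to those shares.

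The protein-coding genes with the largest differences, restricted to those with a mean of at least 1 CPM in a genotype and no overlap, included several low ones. Higher in Ahr-/- were Trim43b, at 0.221 ± 0.0732 against 1.93 ± 0.283 CPM (adjusted p = 9.46e-09, counts uncertain because of close paralogues), Cd55, a decay-accelerating factor of complement, at 0.662 ± 0.293 against 3.27 ± 0.631 CPM (adjusted p = 1.21e-07), Draxin at 3.88 ± 1.84 against 19.0 ± 13.5 CPM and Nrxn2 at 0.328 ± 0.195 against 1.46 ± 0.419 CPM. Draxin and Nrxn2, known from axon guidance and synapses, had adjusted p-values of 5.37e-05 and 7.55e-04, and of 0.145 and 0.0109 without Ahr-/- replicates 1 and 2. Rab4a, Csf2, Il23a, Csf3, Cish, H2-Ob and Cxcl3 were also among the highest.

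Among the lowest, Apol7c, an apolipoprotein L gene with close paralogues, was at 3.95, 3.81, 5.59 and 10.8 CPM in Ahr+/+ and 0.0950, 0, 0.147 and 0.0920 CPM in Ahr-/- (log2 fold change -6.09 ± 0.66, adjusted p = 5.46e-10). Serpinb6b, a serine protease inhibitor gene, fell by 3.23 ± 0.36 (adjusted p = 1.47e-09), the adenylyl cyclase gene Adcy6 fell by 2.86 ± 0.45 (adjusted p = 4.26e-06) and Cacnb3, a calcium channel subunit gene, fell by 2.44 ± 0.41 (adjusted p = 8.87e-06). Cytip, an adaptor that loosens integrin adhesion, was at 7.64, 10.3, 8.80 and 12.7 CPM in Ahr+/+ and 1.84, 1.61, 1.88 and 1.91 CPM in Ahr-/- (-2.44 ± 0.25, adjusted p = 1.04e-10). Pou3f1 fell by 2.37 ± 0.50 (adjusted p = 3.30e-04), and was at -1.61 (adjusted p = 0.0334) without Ahr-/- replicates 1 and 2. The other 6 lowest genes were Scin, Spint1, Mmp8, Gdf3, Ahrr and Hdac9.

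Of 10 dendritic cell markers, 5 could be tested and 4 were lower in Ahr-/- (median -1.99). The lower count was 2 on the 8 libraries, 0 with the series term and 1 without Ahr-/- replicates 1 and 2. The sum over the list, 862 to 1069 CPM in Ahr+/+ and 626 to 721 CPM in Ahr-/-, was almost wholly Bst2, at 836 to 1024 and 612 to 708 CPM. Apart from Ccr7 these were Flt3, a cytokine receptor, at 0.696 ± 0.208 against 0.100 ± 0.107 CPM (adjusted p = 1.39e-04), Zbtb46, a transcription factor of conventional dendritic cells, at 0.670 ± 0.260 against 0.110 ± 0.0779 CPM (adjusted p = 1.92e-04), and Bst2, itself interferon-stimulated, at 930 ± 87.2 against 666 ± 46.6 CPM (adjusted p = 0.00366). Of the defining markers, Xcr1, Clec9a, Cd209a and Siglech had 2, 3, 0 and 0 counts over the 4 Ahr+/+ libraries and 2, 4, 0 and 1 over the 4 Ahr-/- libraries. In bulk RNA fewer cells of a type and less RNA per cell cannot be told apart, and the part of such cells in the results above was not tested. The Bst2 call was lost without Ahr-/- replicate 2 or 4 or Ahr+/+ replicate 1 or 4, at log2 fold changes of -0.47 to -0.43.

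Of 12 macrophage markers none rose and 4 fell, among them Fcgr1, Cd68 at -0.69 ± 0.12 and Ctsd at -0.47 ± 0.09 (adjusted p = 1.33e-05 and 1.71e-04). Their sum was 25282 to 29036 CPM in Ahr+/+, 33665 and 37155 CPM in Ahr-/- replicates 1 and 2, and 24703 and 25103 CPM in replicates 3 and 4. Neutrophil markers summed to 181 to 224 CPM in Ahr+/+ and 181 to 248 CPM in Ahr-/-, and of 9 tested only Mmp8 was called. Markers of B cells, of T and NK cells, of mast cells, of stromal cells and of erythroid cells summed to at most 10.1 CPM in any of the 8 libraries.

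The study's own list of genes responding to AhR ligands was chosen on libraries of this series and is therefore not independent of these samples. Of its 27 genes, 13 fell and 2 rose in Ahr-/- without ligand (median -0.79). Besides Ahrr, Spint1 and Mmp8, the interleukin-21 receptor gene Il21r fell from 63.7 ± 2.87 to 23.2 ± 3.18 CPM (adjusted p = 6.87e-11), and Igf1r, the insulin-like growth factor receptor, rose from 1.92 ± 0.425 to 4.17 ± 0.472 CPM (adjusted p = 6.22e-06). The count was 9 lower and 1 higher in the fit on the 8 libraries, and 10 lower and 2 higher with the series term.

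Whether the genotype difference itself changed with time or with activation was tested by interaction terms. The difference at 20 h was not the same as at 3 h, both with hk S.E., in 885 genes (6.09% of those tested, 373 or 2.57% with a higher and 512 or 3.52% with a lower value at 20 h), and 617 of these were among the 1811 genes called at 20 h. At 20 h the difference with hk S.E. was not the same as without in 641 genes (4.41%, 303 or 2.08% higher and 338 or 2.33% lower), of which 539 were among the 1811. Both tests called 327 of the 1811.

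Plin2 had log2 fold changes of -1.47 with hk S.E. at 20 h, -0.33 with hk S.E. at 3 h and 0.00 without activation at 20 h, so that the differences were -1.13 against 3 h and -1.46 against the unactivated state. Metrnl, a secreted meteorin-like factor, was at 252 ± 16.2 CPM in Ahr+/+ and 117 ± 8.94 CPM in Ahr-/- and fell by 1.11 ± 0.10 (adjusted p = 1.61e-12), against a value of 0.11 at 3 h. Tmem39a, Zhx2 and Inafm1 fell by 0.66 ± 0.08, 0.64 ± 0.09 and 0.68 ± 0.13 at 20 h (adjusted p = 2.07e-08, 6.19e-07 and 5.31e-05) and had positive values of 0.31, 0.38 and 0.82 at 3 h. Cd300c2, an activating receptor, fell from 216 ± 14.6 to 127 ± 7.60 CPM (adjusted p = 2.92e-11), with a value of 0.16 without activation. Atf3, Cytip and Serpinb6b, at -0.90, -2.44 and -3.23 with hk S.E., had values of 0.11, 0.06 and 0.11 without it.

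Of the 44 interferon-stimulated genes, none was called in edgeR at 3 h with hk S.E., at 20 h without activation or at 3 h without activation, and 1, 0 and 1 had an unadjusted p below 0.05. Their medians were -0.12, 0.12 at 20 h without activation and 0.21 at 3 h without activation. In all, 6 and 8 of them were called in the tests against 3 h and against the unactivated state. For sterol synthesis 3 genes were higher at 3 h with hk S.E. (median 0.39) and none without activation at 20 h (median -0.05), and 2 and 4 genes were called in these tests. Mcm5 changed sides, at 0.90 with hk S.E. at 20 h, -0.71 with hk S.E. at 3 h and -0.49 without activation at 20 h, with differences of 1.61 and 1.39. Ahr was at 0.88, 0.97 and 1.04 in the 3 other conditions, and its difference between them and the activated state at 20 h was not called (0.05 against 3 h and -0.04 against the unactivated state at 20 h).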

How the data were processed

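Total RNA of 64 BMM cultures was sequenced by the authors from stranded, poly(A)-selected libraries. Per the study's methods and its processing notes, reads were demultiplexed with bcl2fastq 2.19.0.316, trimmed, aligned to mouse mm10 with HISAT2 2.1.0 and counted per gene, by strand, with HTSeq 0.9.1. The deposited counts are whole reads per gene and were not normalised. The authors also deposited log2-scale values from a variance-stabilising transformation (VST), used here in 1 alternative only. Samples were grouped by genotype, ligand, activation and time as the labels give them.

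All 64 libraries were fitted with 16 group means in edgeR 4.0.16 (R 4.3.3) on the counts as deposited, with trimmed mean of M values scaling (factors of 0.985 to 1.08 in the 8 libraries), filterByExpr at a minimum count of 10 (14537 of 55487 genes tested) and a quasi-likelihood test, Benjamini-Hochberg adjusted, called below 0.01. CPM were computed on the scaled library size, and log2 fold changes are of Ahr-/- over Ahr+/+. Adjusted p-values in the text are from this test unless another setting is named. They measure the spread between libraries within groups, pooled over all 16 groups. Libraries of different groups may come from the same animals, which the test does not take into account. The members and gene lists were chosen with earlier results of these data known. Genes named were the AhR pathway genes, the 12 highest and 12 lowest called protein-coding genes without overlap and with a mean of at least 1 CPM, up to 4 called members per list and direction with leading members that did not pass, called genes within 5 Mb of Ahr, and up to 5 genes per interaction test; Gpnmb, Gm6472, Wdfy1, Ccr1 and Ccl7, called in all 4 ligand-free comparisons, and Rsad2, Isg15 and Il10 fall outside this rule and were chosen after their values were seen. A few genes are not reported here. Gene lists are described by counts and medians, with no test of a list. Counts of called members are to be read beside the shares of all genes tested, 5.06% higher and 7.39% lower.

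Rows of the count files that name no gene stayed out of the totals: in the 8 libraries 13.2 to 14.9% of all counted reads were not aligned uniquely, 3.98 to 5.47% fell on no gene, 1.06 to 1.23% were ambiguous, 0.860 to 2.57% had low alignment quality and 0.457 to 0.750% were not aligned. Libraries of a genotype differed by more than sampling noise (chi-square per degree of freedom of 12.4 to 141), so none repeated the counts of another. In Ahr-/- the value was 15.25 for replicates 1 and 2 and 19.42 for replicates 3 and 4, against 117.65 to 140.83 across these pairs. The check cannot show whether 2 libraries came from different animals. Gene positions came from GENCODE M21 (GRCm38), and 55394 of the 55487 genes matched it. Promoter sequences came from RefSeq (GRCm38.p6). Counting intervals are exact 95% intervals and cover counting error only, since reads carried no molecular identifiers.

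Alternatives were DESeq2 1.42.0, limma 3.58.1 on the VST values, other scalings, filters, fits on fewer libraries, a term for the identifier series, a replicate block and leaving out libraries. In a test on simulated counts of 14537 genes for this comparison, 74 of 100 genes changed by a log2 fold change of 1 and 90 of 100 changed by 2 were recovered, with 1 false call. The simulated libraries were independent, with no split among Ahr-/- replicates and no effect of the identifier series. The false calls there therefore do not give the error rate in the real libraries. Same-numbered libraries of the 2 genotypes came from different mice, and their deviations from the group means correlated at -0.255 to -0.148, so replicate numbers did not pair them.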

Additional observations from a re-analysis of the deposited data

Results flagged for a closer look

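Among 264 pairs of a named gene and a genotype, the highest or lowest library stood far from the other 3 in 7 pairs (2.7%). Most of these genes were named because they were called, which favours groups with little spread. The 2.7% is therefore not comparable with the rate of about 1 in 20 that chance alone flags. For each of the 7 pairs the share of the range taken by the gap is given. In Ahr+/+, Hsp90aa1 was apart in replicate 4 (0.926), Mrc1 in replicate 2 (0.898), Serpinb6b in replicate 4 (0.880) and Tlr9 in replicate 4 (0.860). In Ahr-/-, Scin was apart in replicate 1 (1.000, a single count against none), Ifnb1 in replicate 3 (0.936) and Ticam1 in replicate 2 (0.934). Without that library, Mrc1 lost its call, at a log2 fold change of -1.26, and each of the other genes kept its call.

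The genotype difference changed between conditions in 885 genes for 20 h minus 3 h with hk S.E. and in 641 genes for hk S.E. minus none at 20 h (edgeR interaction tests, adjusted p below 0.01). The genes with the smallest p for 20 h minus 3 h were Inafm1 (-1.498), Metrnl (-1.22), Plin2 (-1.13), Zhx2 (-1.02) and Tmem39a (-0.97), each as a difference of log2 fold changes. For hk S.E. minus none they were Serpinb6b (-3.34), Cytip (-2.50), Plin2 (-1.46), Atf3 (-1.01) and Cd300c2 (-0.92).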

How the results depend on the processing

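The count of 1811 genes at 20 h became 2931 at an adjusted p below 0.05, 874 without Ahr-/- replicates 1 and 2, 532 in edgeR on the 8 libraries and 493 with the identifier series as a covariate, the cause of which was not tested, and it ranged from 1286 to 1805 when 1 library was left out. The replicate block, whose numbers do not pair the mice, left 7 genes (3047 at an unadjusted p below 0.05, against 4649 in the pooled fit). DESeq2, other scalings, filters, limma on the VST values and the 32 libraries of 20 h gave 1433 to 2148. The count for 20 h minus 3 h was 1913 at 0.05, 564 with no filter on low counts and 22 with the replicate block, and 610 to 1004 with 1 library left out. That for hk S.E. minus none was 1327 at 0.05 and 1 with the replicate block, and 427 to 718 with 1 library left out, the lowest without Ahr-/- replicate 2.

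Of 110 named genes called, 99 stayed called in each leave-one-out fit, 72 on the 8 libraries, 47 with the identifier series, 69 without Ahr-/- replicates 1 and 2 and 104 without replicates 3 and 4; none changed direction in these. Signs turned only in genes that had not passed. With the identifier series H2-D1 was at 0.0513, H2-K1 at 0.0533, Cybb at -0.10 and Xist at -0.39. Without Ahr-/- replicates 1 and 2, Il6 was at -0.0643, Arg1 at -0.62, Abca1 at 0.17, Slc2a1 at -0.16 and Csf1r at -0.10, and without replicates 3 and 4 Cybb was at -0.0789 and Xist at -0.24. With 1 library left out Tnf ran from -0.0751 to 0.125, Arg1 from -0.0623 to 0.648, Csf1r from -0.0198 to 0.1245 and Abca1 from -0.236 to 0.0094.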
